A study of Mus musculus with 24 samples.

Results

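The 42 genes described here take part in DNA replication, the cyclin and kinase steps of the cell cycle, and mitosis. They were named by symbol for their roles, with no threshold on a measured value, but with earlier results of these data known. All 42 had a row in the deposited table of 14693 genes, and all 42 were among the 12994 genes left after genes with low counts were removed. Transcript 3′ ends were counted in C2C12 cells, a mouse myoblast line labelled wild type that leaves the cell cycle and fuses into myotubes when serum is lowered. Per the labels, cells grew in 10% fetal bovine serum, were moved to 2% horse serum, and during differentiation received 100 µM linoleic acid (LA) bound to bovine serum albumin, 10 ng/mL of recombinant mouse ANGPTL4, or a vehicle. LA is an omega-6 fatty acid, and ANGPTL4 is a secreted inhibitor of lipoprotein lipase.

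The 6 groups were LA, ANGPTL4 and vehicle at day 6 and LA, ANGPTL4 and vehicle at day 2, with 4 libraries each. All 6 had gone through the change of serum, and cells in growth medium were not analysed here. The labels did not say what the vehicle held, nor whether the libraries of a group came from separate cultures, so p-values measure only the spread between these libraries, which may be technical. Library totals ran from 6100684 to 25049912 counts, and ANGPTL4 at day 6 was the shallowest group. In a principal component analysis of all genes, LA replicate 3 of day 2 and ANGPTL4 replicate 1 of day 6 lay away from the other libraries of their groups, the first of them among the ANGPTL4 libraries of day 2, and ANGPTL4 replicate 4 of day 2 lay nearer to LA of day 2 than to its own group. The myogenic genes Myod1, Myog, Des, Cdh15, Mymk, Ckm, Acta1, Myh3 and Myf5 together held between 9118 and 13433 CPM (read counts scaled to a common library total) in every library. The 3′ ends of Mcm7, Cdt1, Gins2, Foxm1, Ccne2, Ccna2, Plk1, Cdc20 and Prc1 overlap another annotated gene, and Pcna, Tyms, Ccnb1 and Ccnb2 have processed pseudogenes. The strand setting of the counting and its rule for reads that match more than 1 place were not stated, so these genes are less certain. The genes that overlap Cdt1 and Foxm1 lie on the same strand as these, which a strand setting would not separate. In such bulk RNA, fewer cycling cells and less RNA per cycling cell cannot be told apart.

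Before a cell copies its DNA, ORC, Cdc6 and Cdt1 load the ring-shaped MCM helicase onto origins, and later GINS and Cdc45 switch it on. DNA polymerases, the sliding clamp Pcna and the enzymes that make deoxynucleotides then carry out synthesis. In mitosis, kinases such as Plk1 and Aurora A and B, the spindle checkpoint, kinetochore proteins and kinesins separate the chromosomes. E2F factors act mainly on replication genes, while the MuvB-containing DREAM, B-Myb and FoxM1 complexes act on mitotic genes through the cell cycle homology region (CHR), and in myoblasts both programmes are shut down as myotubes form.

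The promoters of many members show letters of these 2 kinds of element, and the windows of some members are printed here. RefSeq windows of 300 bases on the build GRCm38.p6, from 250 bases before the annotated start to 50 bases after it, were matched to 34 members. Aurkb, Ccna2, Ccne2, Foxm1, Gins2, Mcm4, Pole and Tpx2 were not matched. Letters were searched on both strands. The E2F letters were TTTCCCGC, TTTCGCGC, TTTGCCGC and TTTGGCGC, the CHR letters were TTTGAA, and the CCAAT box was searched as CCAAT. In the windows below, written 5′ to 3′ on the strand of the gene, capitals mark E2F or CHR letters. The first 4 genes belong to replication and had LA calls at day 6 that held under every alternative tried. The calls of Mcm4, which had no window, and of E2f2 held as well. E2f2 had the largest fall with LA. Bub1b and Cenpf had the highest mean level of their mitotic classes, and neither was called for LA or ANGPTL4 over vehicle. Both hold CHR letters, while the windows of the mitotic members Bub1, Birc5 and Cenpe, not printed, hold none.
Mcm3 (chr1:20820263-20820562, minus strand): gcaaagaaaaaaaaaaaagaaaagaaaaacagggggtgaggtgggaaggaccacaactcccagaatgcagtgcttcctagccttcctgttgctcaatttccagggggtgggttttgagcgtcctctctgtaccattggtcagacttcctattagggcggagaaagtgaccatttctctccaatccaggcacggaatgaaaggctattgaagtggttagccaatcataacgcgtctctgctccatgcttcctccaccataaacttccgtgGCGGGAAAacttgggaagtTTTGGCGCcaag
Mcm6 (chr1:128359656-128359955, minus strand): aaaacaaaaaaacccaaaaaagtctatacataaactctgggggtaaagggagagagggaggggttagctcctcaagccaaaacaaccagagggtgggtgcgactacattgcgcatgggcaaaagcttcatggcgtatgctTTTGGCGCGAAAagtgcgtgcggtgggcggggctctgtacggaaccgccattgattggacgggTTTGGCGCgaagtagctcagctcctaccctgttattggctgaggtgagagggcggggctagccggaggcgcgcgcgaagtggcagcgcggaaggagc
Pola1 (chrX:93632106-93632405, minus strand): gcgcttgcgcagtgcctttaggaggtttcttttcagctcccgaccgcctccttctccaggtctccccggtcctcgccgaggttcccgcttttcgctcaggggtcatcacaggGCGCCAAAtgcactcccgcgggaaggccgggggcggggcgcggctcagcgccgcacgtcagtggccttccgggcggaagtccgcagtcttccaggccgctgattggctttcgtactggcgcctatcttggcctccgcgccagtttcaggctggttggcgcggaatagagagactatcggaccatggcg
Hells (chr19:38930740-38931039, plus strand): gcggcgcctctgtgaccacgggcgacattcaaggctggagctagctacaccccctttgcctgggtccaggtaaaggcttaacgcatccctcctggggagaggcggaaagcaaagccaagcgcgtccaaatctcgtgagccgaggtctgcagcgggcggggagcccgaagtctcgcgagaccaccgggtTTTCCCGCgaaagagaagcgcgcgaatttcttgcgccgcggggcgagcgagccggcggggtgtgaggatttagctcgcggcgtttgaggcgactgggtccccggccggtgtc
E2f2 (chr4:136172024-136172323, plus strand): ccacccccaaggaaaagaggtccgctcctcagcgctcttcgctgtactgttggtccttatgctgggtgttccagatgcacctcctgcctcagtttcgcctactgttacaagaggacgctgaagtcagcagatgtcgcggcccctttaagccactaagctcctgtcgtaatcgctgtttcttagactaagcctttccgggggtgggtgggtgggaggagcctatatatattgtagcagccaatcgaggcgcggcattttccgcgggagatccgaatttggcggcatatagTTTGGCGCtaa
Bub1b (chr2:118597961-118598260, plus strand): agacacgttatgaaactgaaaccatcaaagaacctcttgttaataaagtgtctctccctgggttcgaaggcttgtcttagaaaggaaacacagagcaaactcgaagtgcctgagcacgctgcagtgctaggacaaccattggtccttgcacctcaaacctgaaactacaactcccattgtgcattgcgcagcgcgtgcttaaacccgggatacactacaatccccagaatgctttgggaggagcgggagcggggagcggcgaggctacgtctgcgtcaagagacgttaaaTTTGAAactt
Cenpf (chr1:189688037-189688336, minus strand): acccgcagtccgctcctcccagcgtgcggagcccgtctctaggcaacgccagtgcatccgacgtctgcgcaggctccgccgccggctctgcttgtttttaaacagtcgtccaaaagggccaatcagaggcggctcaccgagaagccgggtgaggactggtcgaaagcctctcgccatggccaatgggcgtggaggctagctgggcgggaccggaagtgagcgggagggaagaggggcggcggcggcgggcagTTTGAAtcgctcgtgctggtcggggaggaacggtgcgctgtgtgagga

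E2F letters stood in the windows of 9 of 14 replication members (Cdc6, Cdt1, Hells, Mcm3, Mcm5, Mcm6, Mcm7, Pola1 and Uhrf1) and of 0 of 11 members of the mitotic kinase, checkpoint, spindle and kinetochore classes. They stood in 2.26% of all 32851 windows of the table and in the windows of 4.44% of the 11513 genes of the deposited table that had one. CHR letters showed the other arrangement, with 1 of 14 replication members (Mcm2) and 8 of 11 mitotic members (Aurka, Bub1b, Cdc20, Cenpf, Kif11, Kif23, Plk1 and Prc1). They stood in 17.89% of all windows and in 14.56% of those 11513 genes. CCAAT stood in 10 of 14 and 10 of 11, against 37.41% of all windows and 42.42% of those genes. Members were counted by gene, so the shares of genes are the like measure. In the Mcm6 window the matches at -110 and -106 overlap each other, in Mcm3 the matches begin at 20 and 39 bases after the start, and in Hells the match begins at -62. CHR letters began at 41 in Bub1b and at 3 in Cenpf. E2f2 had E2F letters at 40 in the window printed, and CHR letters only in a second RefSeq window. These matches describe letters and not bound sites.

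**Figure D1:**
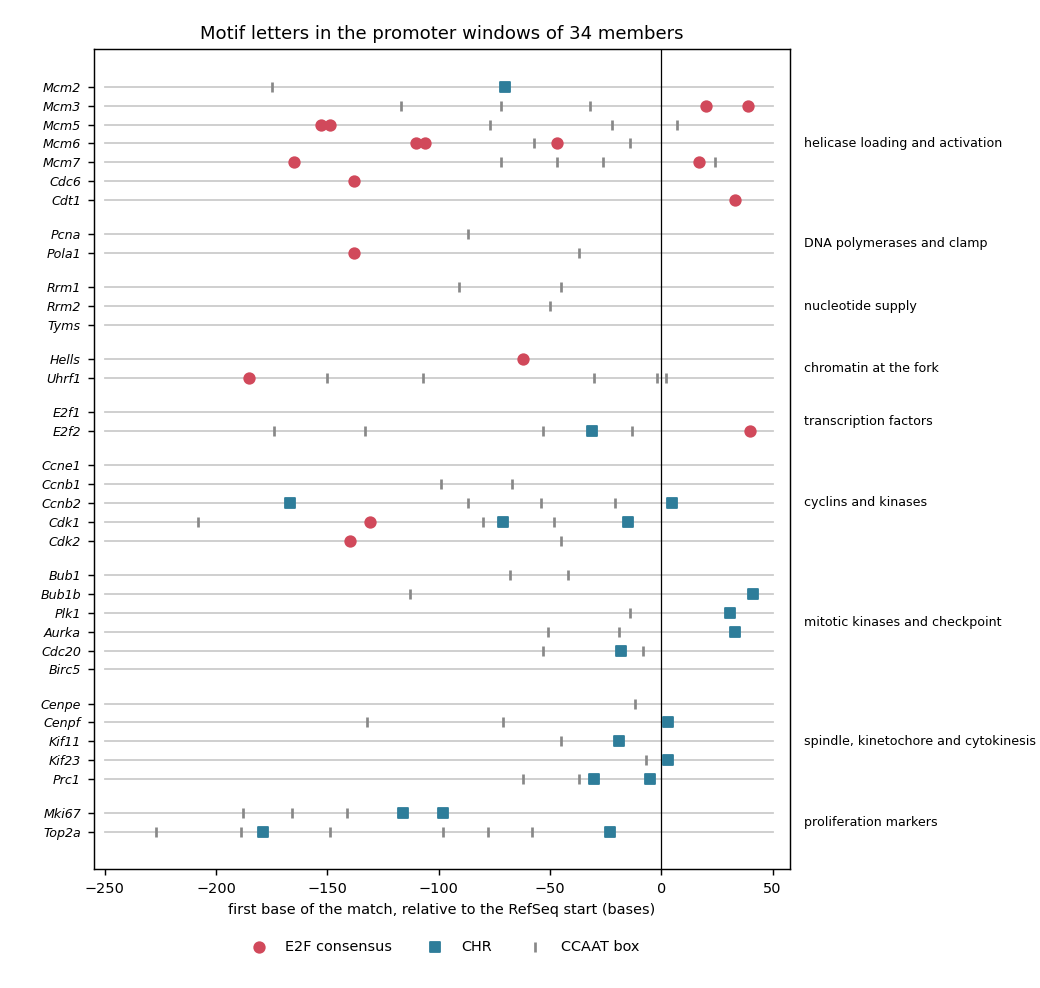
Position of the first base of each match to the E2F letters (red circles), the CHR letters (blue squares) and CCAAT (grey ticks) relative to the RefSeq start, in bases, for the 34 members with a window, grouped by role; members with more than 1 window are drawn on 1 line. Of the 12 members with E2F letters 9 are replication members and the others are Cdk1, Cdk2 and E2f2; of the 14 with CHR letters 8 are in the mitotic kinase, checkpoint, spindle and kinetochore classes.

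Day 6 was set against day 2 to see how the members moved during differentiation, and every member called in any arm was lower at day 6. With LA, 19 of the 42 members fell and 0 rose, where 20.7% of all genes tested fell and 23.1% rose. With ANGPTL4, 36 members fell and 0 rose (19.8% of all genes fell and 22.4% rose). With vehicle, 30 members fell and 0 rose (20.5% of all genes fell and 25.2% rose). The median log2 fold change of the members was -0.19 with LA, -0.40 with ANGPTL4 and -0.36 with vehicle, against -0.0071, -0.0031 and 0.019 for all genes. Calls rest on an adjusted p below 0.05 in edgeR's quasi-likelihood test, adjusted over all genes tested by the Benjamini-Hochberg method. The 3 comparisons use separate libraries, and the difference between them is tested further below.

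Markers of other cell types and states moved between the same days. The 8 fibroblast markers with a row include collagens and other matrix genes, and 8 of them rose with LA, 6 with ANGPTL4 and 7 with vehicle, and 1 fell with vehicle. Their summed level was 14214 to 17070 CPM with LA at day 6 and 9618 to 10788 CPM with LA at day 2. With ANGPTL4 it was 12368 to 13314 CPM at day 6 and 9631 to 10878 CPM at day 2, and with vehicle 12176 to 14136 CPM at day 6 and 9403 to 11015 CPM at day 2, so that the days did not overlap in any arm. Of the 8 satellite and reserve cell markers with a row, 4 fell with LA, 6 with ANGPTL4 and 5 with vehicle, and 2 rose with LA, 1 with ANGPTL4 and 1 with vehicle. Lpl, lipoprotein lipase and the one adipocyte marker with a row, fell in all 3 arms (log2 fold change -0.80 with LA, -3.43 with ANGPTL4 and -3.09 with vehicle). Of the 9 myogenic markers 1 rose and 6 fell with LA, 2 rose and 4 fell with ANGPTL4, and 3 rose and 3 fell with vehicle. Myf5 is in both the myogenic list and the satellite and reserve cell list. The macrophage markers with a row summed to at most 4.29 CPM in any library and the endothelial ones to at most 1.57 CPM. The part of these shifts in the values of the members was not tested.

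**Figure D2:**
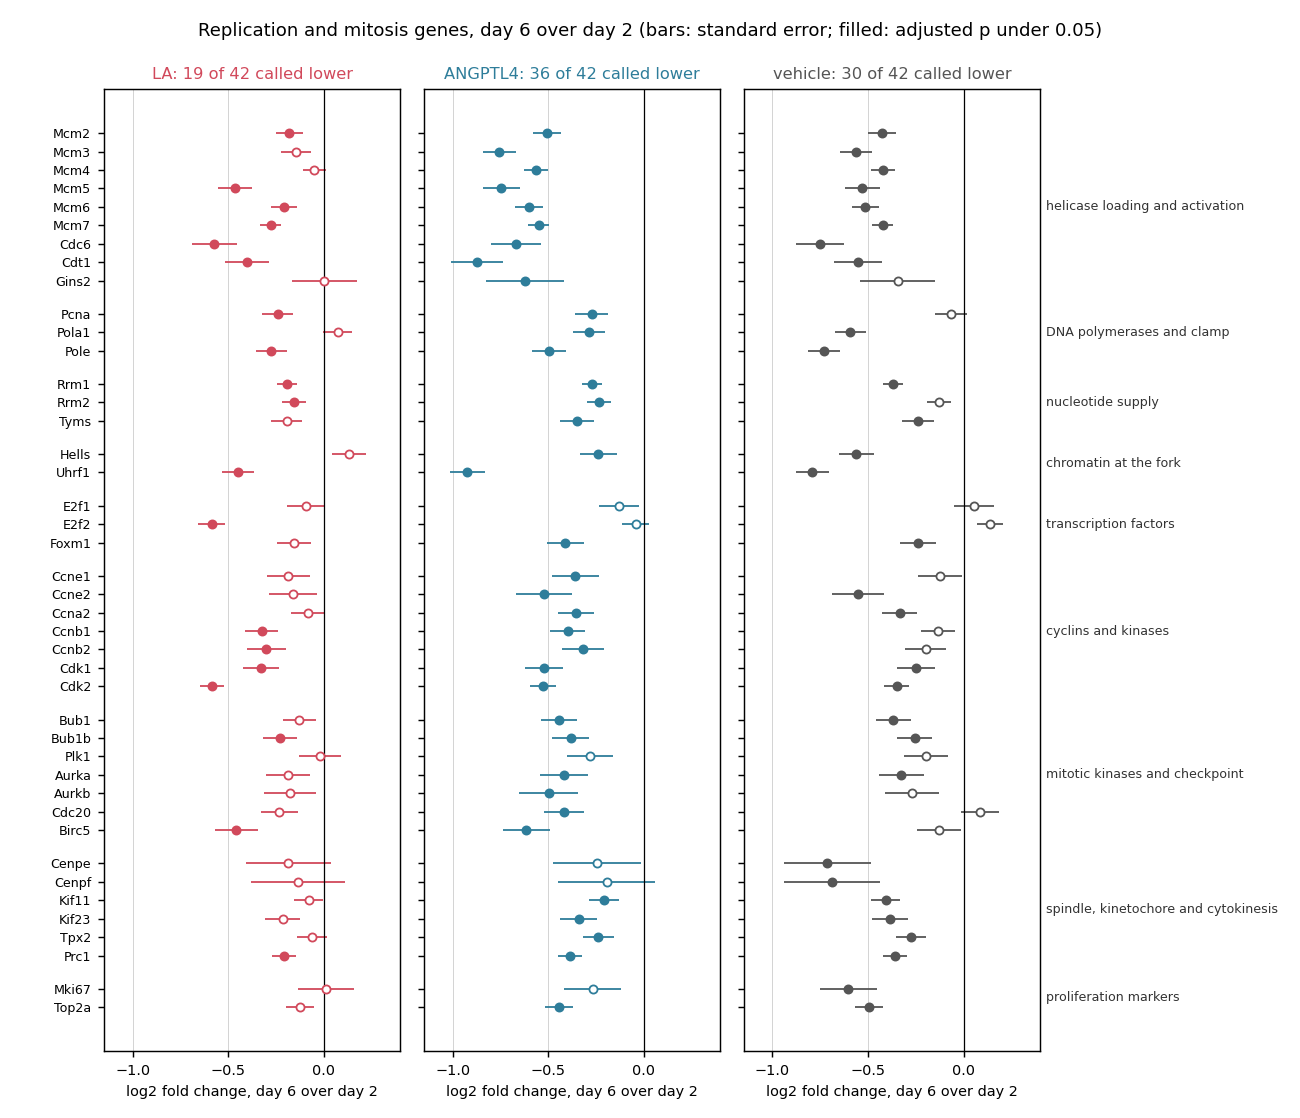
Log2 fold change of day 6 over day 2 (x axis) for the 42 members, grouped by role, with LA (left), ANGPTL4 (middle) and vehicle (right); bars are standard errors, and filled points have an adjusted p under 0.05. Filled points lie left of 0 in every panel, 19 with LA, 36 with ANGPTL4 and 30 with vehicle.

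Of the 9 helicase loading and activation genes, 6 fell with LA, 9 with ANGPTL4 and 8 with vehicle. Cdt1, which loads the helicase together with Cdc6, fell by 0.40 on the log2 scale with LA (adjusted p = 0.0051). Cdt1 had 6.12, 5.23, 5.39 and 6.42 CPM with ANGPTL4 at day 6, against 11, 10.9, 10.0 and 10.6 CPM with ANGPTL4 at day 2. These groups were well apart (-0.87 ± 0.13, SE, adjusted p = 2.8e-06), the largest fall of the class in that arm. Cdc6, which recruits the helicase to origins, had 5.08, 5.08, 5.83 and 4.15 CPM with vehicle at day 6, against 8.84, 8.63, 9.77 and 7.09 CPM with vehicle at day 2. All 4 day 6 libraries lay below all 4 day 2 libraries (-0.75 ± 0.12, adjusted p = 9.0e-06).

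Mcm6, a helicase subunit, fell in all 3 arms. With LA its log2 fold change was -0.21 ± 0.07 (adjusted p = 0.014), with ANGPTL4 -0.60 ± 0.07 (3.1e-08) and with vehicle -0.51 ± 0.07 (4.3e-07). In vehicle cells it had 49.9, 50.1, 51.1 and 51.0 CPM at day 6, against 68.6, 75.5, 80.5 and 64.4 CPM at day 2. The day 6 libraries lay close together and below every day 2 library. The call of Mcm6 with LA was lost without LA replicate 1 of day 6 (adjusted p = 0.075) and without LA replicate 3 of day 6 (0.054). Gins2, a subunit of the GINS activator, had 0.0017 with LA, -0.62 with ANGPTL4 and -0.35 with vehicle, and passed with ANGPTL4 (adjusted p = 1.00, 0.014 and 0.15). Without ANGPTL4 replicates 3 or 4 of day 6 that call was lost (0.059 and 0.077).

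Among the polymerases, Pole, the catalytic subunit of the leading strand polymerase, stood at -0.28 ± 0.08 with LA, -0.49 ± 0.09 with ANGPTL4 and -0.73 ± 0.08 with vehicle (adjusted p = 0.0060, 2.7e-05 and 1.7e-08). Its vehicle libraries had 17.7, 16.9, 18.3 and 17.1 CPM at day 6, against 27.8, 30.4, 33.5 and 24.7 CPM at day 2, and the groups did not overlap. Pola1, the catalytic subunit of the primase-coupled polymerase, had 0.07 ± 0.08 with LA and passed with ANGPTL4 (-0.29 ± 0.08) and with vehicle (-0.59 ± 0.08), with adjusted p of 0.47, 0.0055 and 4.5e-07.

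Pcna, the sliding clamp, passed with LA (-0.24, adjusted p = 0.015) and with ANGPTL4 (-0.27, 0.0095), and the call with LA was lost without LA replicate 3 of day 2 (0.060). In vehicle cells Pcna had 45.6, 39.3, 45.6 and 42.8 CPM at day 6, against 50.4, 38.6, 48.4 and 45.0 CPM at day 2. These groups overlap (-0.07 ± 0.08, adjusted p = 0.54).

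The 3 nucleotide supply genes had falls of 0.37 or less on the log2 scale. Rrm1, the large subunit of ribonucleotide reductase, fell in all 3 arms (-0.19 with LA, -0.27 with ANGPTL4 and -0.37 with vehicle). Rrm2, its inducible subunit, passed with LA (-0.16, adjusted p = 0.041) and with ANGPTL4 (-0.24, 0.0029), and the call with LA was lost in 12 of 34 alternatives, up to an adjusted p of 0.20 without LA replicate 1 of day 6. With vehicle Rrm2 had 158, 176, 152 and 150 CPM at day 6, against 167, 186, 192 and 151 CPM at day 2, which overlap (-0.13 ± 0.06, adjusted p = 0.087). Tyms, which makes thymidylate, had -0.19 with LA (adjusted p = 0.052) and fell with ANGPTL4 (-0.35) and with vehicle (-0.24).

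Uhrf1, which brings the maintenance DNA methyltransferase to newly copied DNA, fell in all 3 arms, by most of all members with ANGPTL4 and with vehicle. Its log2 fold change was -0.45 ± 0.08 with LA, -0.92 ± 0.09 with ANGPTL4 and -0.79 ± 0.09 with vehicle (adjusted p = 6.1e-05, 6.3e-10 and 6.1e-09). The vehicle libraries of Uhrf1 had 25.3, 23.6, 26.9 and 24.8 CPM at day 6, against 40.9, 46.3, 46.5 and 40.8 CPM at day 2, far apart. Hells, a chromatin remodelling ATPase, had 0.13 ± 0.09 with LA (adjusted p = 0.23), -0.24 ± 0.10 with ANGPTL4 (0.044) and -0.56 ± 0.09 with vehicle (8.4e-06). The call with ANGPTL4 was lost without ANGPTL4 replicates 1 or 2 of day 2 (0.094 and 0.069) or 1, 2 or 3 of day 6 (0.15, 0.081 and 0.14).

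The transcription factors differed among themselves. E2f2, an E2F of the activator type, had 62.2, 49.7, 61.8 and 56.0 CPM with LA at day 6, against 82, 84.4, 86.7 and 93.3 CPM with LA at day 2. No LA library of day 6 reached a library of day 2 (-0.59 ± 0.07, adjusted p = 3.9e-08). With ANGPTL4 it had -0.04 ± 0.07 (adjusted p = 0.67). With vehicle it had 94.9, 94.1, 90.2 and 107 CPM at day 6, against 88.0, 93.8, 93.9 and 75.6 CPM at day 2, which overlap (0.14 ± 0.07, adjusted p = 0.10). E2f1, another activator of S phase genes, passed in none of the 3 arms, with values between -0.13 and 0.05. Foxm1, a factor for mitotic genes, had -0.16 with LA (adjusted p = 0.16) and fell with ANGPTL4 (-0.41, 0.00083) and with vehicle (-0.24, 0.034), the last of which was lost without vehicle replicate 2 of day 2 (0.11) or vehicle replicate 3 of day 6 (0.089).

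Of the 7 cyclins and their kinases, 4 fell with LA, 7 with ANGPTL4 and 4 with vehicle. Cdk2, the kinase partner of cyclins E and A, fell in all 3 arms (-0.59 with LA, -0.53 with ANGPTL4 and -0.35 ± 0.06 with vehicle). In vehicle cells Cdk2 had 41.3, 45.1, 41.4 and 42.1 CPM at day 6, against 50.9, 62.8, 52.1 and 49.8 CPM at day 2 (adjusted p = 4.1e-05). The lowest day 2 library lay above the highest day 6 library. Ccne2, an E-type cyclin of S phase entry, had -0.16 with LA (adjusted p = 0.30) and fell with ANGPTL4 (-0.52) and with vehicle (-0.55). The mitotic cyclin Ccnb1 fell with LA (-0.33) and with ANGPTL4 (-0.40), and had -0.13 with vehicle (adjusted p = 0.23).

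Of the 7 mitotic kinase and checkpoint genes, 2 fell with LA, 6 with ANGPTL4 and 3 with vehicle. Bub1b, the checkpoint protein BubR1, was called in all 3 arms (-0.23 with LA, -0.38 with ANGPTL4 and -0.26 with vehicle, adjusted p = 0.040, 0.0017 and 0.024). In vehicle cells Bub1b had 23.7, 27.2, 22.9 and 26.3 CPM at day 6, against 24.7, 34.9, 34.3 and 25.1 CPM at day 2, which overlap. This call was lost without vehicle replicates 2 or 3 of day 2 (adjusted p = 0.12 and 0.077) or replicate 3 of day 6 (0.085), and the one with LA was lost in 11 of 34 alternatives, up to 0.12 without LA replicate 1 of day 6. Birc5, the survivin subunit of the Aurora B complex, fell with LA (-0.46, adjusted p = 0.0012) and with ANGPTL4 (-0.61, 0.00012), and had -0.13 with vehicle (0.37). Cdc20, which activates the anaphase-promoting complex, had -0.23 with LA (adjusted p = 0.051), fell with ANGPTL4 (-0.42, 0.0014) and had 0.08 with vehicle (0.51). Plk1 passed in none of the 3 arms (adjusted p = 0.90 with LA, 0.057 with ANGPTL4 and 0.16 with vehicle).

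Of the 6 spindle, kinetochore and cytokinesis genes, 1 fell with LA, 4 with ANGPTL4 and 6 with vehicle. Prc1, which bundles midzone microtubules, was the gene that fell with LA (-0.21), and it fell with ANGPTL4 (-0.39) and with vehicle (-0.36) too. Cenpf, a kinetochore protein, had -0.13 ± 0.25 with LA (adjusted p = 0.69) and -0.19 ± 0.25 with ANGPTL4 (0.58). With vehicle it had 26.9, 72.8, 79.1 and 74.2 CPM at day 6, against 89.3, 110, 104 and 103 CPM at day 2. The groups did not overlap, and replicate 1 of day 6 lay far below the others (-0.69 ± 0.25, adjusted p = 0.032). Without that library the adjusted p was 0.069, and it was 0.060 and 0.057 without vehicle replicates 2 and 4 of day 2. Cenpe, a kinetochore motor, had -0.19 with LA, -0.24 with ANGPTL4 and -0.71 with vehicle, of which the last passed (adjusted p = 0.016, and 0.092 with the compared groups alone in the fit).

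The proliferation markers are Mki67, the Ki-67 antigen, and Top2a, the topoisomerase that untangles sister chromatids. Mki67 had 0.01 ± 0.15 with LA (adjusted p = 0.97) and -0.27 ± 0.15 with ANGPTL4 (0.16). With vehicle it had 117, 181, 185 and 184 CPM at day 6, against 195, 278, 270 and 266 CPM at day 2, with 1 low library on each day (-0.60 ± 0.15, adjusted p = 0.0028). Top2a had -0.12 with LA (adjusted p = 0.17) and fell with ANGPTL4 (-0.44) and with vehicle (-0.50).

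Cenpf, Mki67 and Cenpe have the 3 longest annotated transcripts of the members, with 11130, 10061 and 7910 bases. In LA replicate 3 of day 6 these 3 genes together stood at -0.91 on the log2 scale against the other libraries of the group, and the median member at -0.12. In vehicle replicate 1 of day 6 they stood at -1.2, and the median member at -0.03. Over the 42 members the deviation of a library from its group had a correlation with log transcript length of -0.57 in LA replicate 3 of day 6, -0.60 in vehicle replicate 1 of day 6 and -0.70 in LA replicate 3 of day 2. Over 12724 genes these were -0.04, -0.17 and -0.26. The genes are not independent replicates, and what part this has in the results on these genes was not tested beyond the alternatives given.

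**Figure D3:**
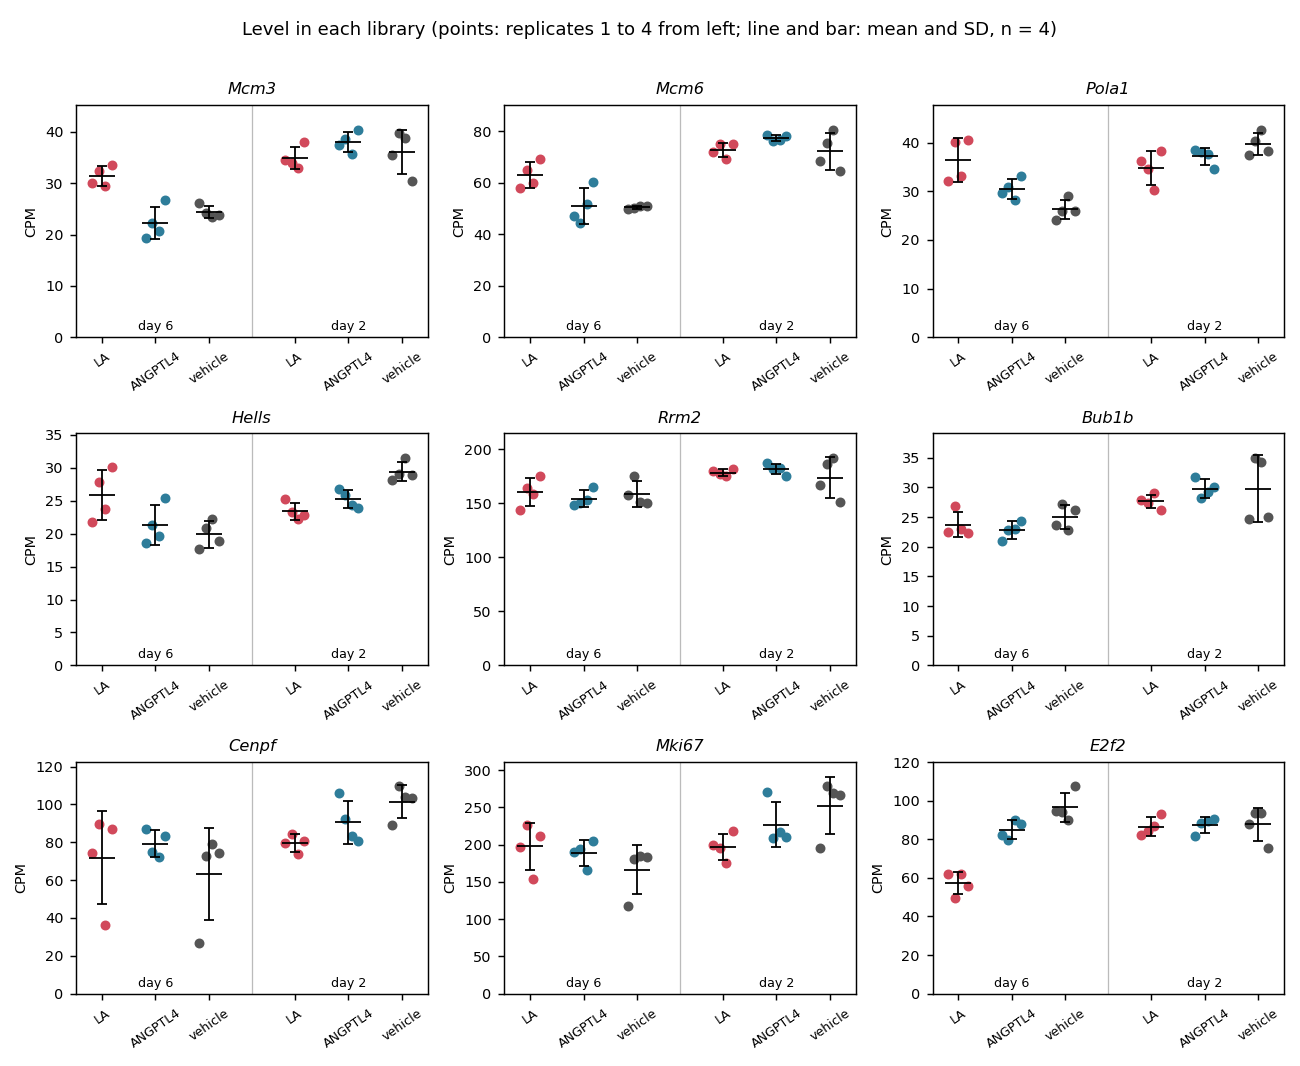
Level in CPM (y axis, from 0) of 9 members in each library, at day 6 (left of the grey line) and day 2 (right), with LA (red), ANGPTL4 (blue) and vehicle (grey); points run from replicate 1 to replicate 4, and lines with bars are means and SD of 4 libraries. E2f2 is low with LA at day 6, at 49.7 to 62.2 CPM, Mcm3 and Pola1 with LA at day 6 lie above vehicle of day 6, and Cenpf has 1 low library each with LA (36.2 CPM) and with vehicle (26.9 CPM) at day 6.

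LA was compared with vehicle at day 6, late in differentiation. Whether the vehicle held albumin was not stated, and if it held none, LA and its carrier cannot be told apart. Of the 42 members 8 were higher and 2 lower with LA, where 7.83% of all genes tested were higher and 9.38% lower. The 8 were Mcm3, Mcm4, Mcm6, Mcm7, Gins2, Pola1, Pole and Hells, all from the replication classes, and the 2 were E2f2 and Cdk2. The median member stood at 0.11 on the log2 scale, against -0.01 for all genes. No member of the mitotic kinase, checkpoint, spindle, kinetochore or proliferation marker classes passed the test, and their values ran from -0.26 (Cdc20) to 0.25 (Mki67). In the same libraries 9 myogenic markers summed to 9118 to 10110 CPM with LA and 12807 to 13433 CPM with vehicle, and the part of this shift in the values of the members was not tested.

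Mcm3, a helicase subunit, had 30.0, 32.4, 29.5 and 33.6 CPM with LA at day 6, against 26.2, 24.2, 23.4 and 23.9 CPM with vehicle. All 4 LA libraries lay above all 4 vehicle libraries (0.36 ± 0.08, adjusted p = 0.0023). Mcm6 had 58, 64.8, 60.1 and 69.2 CPM with LA, against 49.9, 50.1, 51.1 and 51.0 CPM with vehicle, again with no overlap (0.32 ± 0.07, adjusted p = 0.0016). Mcm4 was higher by 0.33 ± 0.06 (adjusted p = 0.00025), with 51.1 to 59.2 CPM with LA and 41.5 to 48.8 CPM with vehicle. Under the 34 alternatives the adjusted p of Mcm3 was at most 0.011, that of Mcm6 0.012 and that of Mcm4 0.0020. Mcm2 and Mcm5, which complete the ring, had 0.18 and 0.05 (adjusted p = 0.11 and 0.81).

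Mcm7 and Gins2 passed with less margin. Mcm7 had 42 to 47.7 CPM with LA and 38.0 to 43.4 CPM with vehicle, which overlap (0.17 ± 0.06, adjusted p = 0.036). Its call was lost without any of LA replicates 2 and 4 or vehicle replicates 1, 2 and 3 of day 6, with adjusted p from 0.068 to 0.11. Gins2 had 4.31, 5.82, 5.03 and 4.33 CPM with LA, against 3.36, 3.29, 3.56 and 2.59 CPM with vehicle, which do not overlap (0.58 ± 0.19, adjusted p = 0.034). These values rest on 41 to 65 counts with LA and 25 to 44 with vehicle, and the adjusted p rose to 0.13 without LA replicate 2 and to between 0.053 and 0.090 under limma-voom or without LA replicate 3 or vehicle replicates 1, 2 and 4.

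Pola1 had 32.1, 40.1, 33.1 and 40.5 CPM with LA at day 6, against 24.1, 26.0, 29.0 and 25.9 CPM with vehicle. LA replicates 2 and 4 were highest, and the lowest LA library still lay above the highest vehicle library (0.47 ± 0.08, adjusted p = 8.8e-05). Pole had 19.7, 23.4, 19.7 and 21.8 CPM with LA, against 17.7, 16.9, 18.3 and 17.1 CPM with vehicle, with no overlap (0.27 ± 0.09, adjusted p = 0.032). The call of Pole was lost under limma-voom (0.052) and without LA replicates 2 and 4 (0.12 and 0.070) or vehicle replicates 1, 2 and 4 (0.054, 0.068 and 0.055). Pcna was not called (0.09 ± 0.08, adjusted p = 0.52), with 45.1 to 49.2 CPM with LA and 39.3 to 45.6 CPM with vehicle.

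Hells had 21.8, 27.8, 23.7 and 30.0 CPM with LA at day 6, against 17.6, 20.8, 22.2 and 18.9 CPM with vehicle. LA replicate 1 lay below vehicle replicate 3, and the other LA libraries lay above all vehicle libraries (0.37 ± 0.09, adjusted p = 0.0050, and at most 0.037 under the alternatives). Uhrf1 had 23.7, 34.5, 28.7 and 29.7 CPM with LA, against 25.3, 23.6, 26.9 and 24.8 CPM with vehicle, and did not pass (0.20 ± 0.09, adjusted p = 0.14). Rrm1, Rrm2 and Tyms had 0.12, 0.01 and 0.07, with adjusted p of 0.15 or more.

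E2f2 moved the other way and by more than any other member. It had 62.2, 49.7, 61.8 and 56.0 CPM with LA at day 6, against 94.9, 94.1, 90.2 and 107 CPM with vehicle. The highest LA library lay far below the lowest vehicle library (-0.75 ± 0.07, adjusted p = 4.1e-09, and at most 9.2e-07 under the alternatives). E2f1 and Foxm1 had 0.03 and 0.01. Cdk2 had 37.3, 35.8, 37.9 and 36.2 CPM with LA, against 41.3, 45.1, 41.4 and 42.1 CPM with vehicle. These do not overlap, but the difference was small (-0.20 ± 0.07, adjusted p = 0.031), and the call was lost in 20 of 34 alternatives, up to an adjusted p of 0.16 without vehicle replicate 2 of day 6. All 7 called members with a RefSeq window, 5 higher and 2 lower, held E2F letters, Mcm7 and E2f2 not in every window. Gins2, Mcm4 and Pole had no window. Such letters stood in 12 of all 34 members with a window and in 9 of 14 replication members. Whether they have a part in the LA values was not tested.

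**Figure D4:**
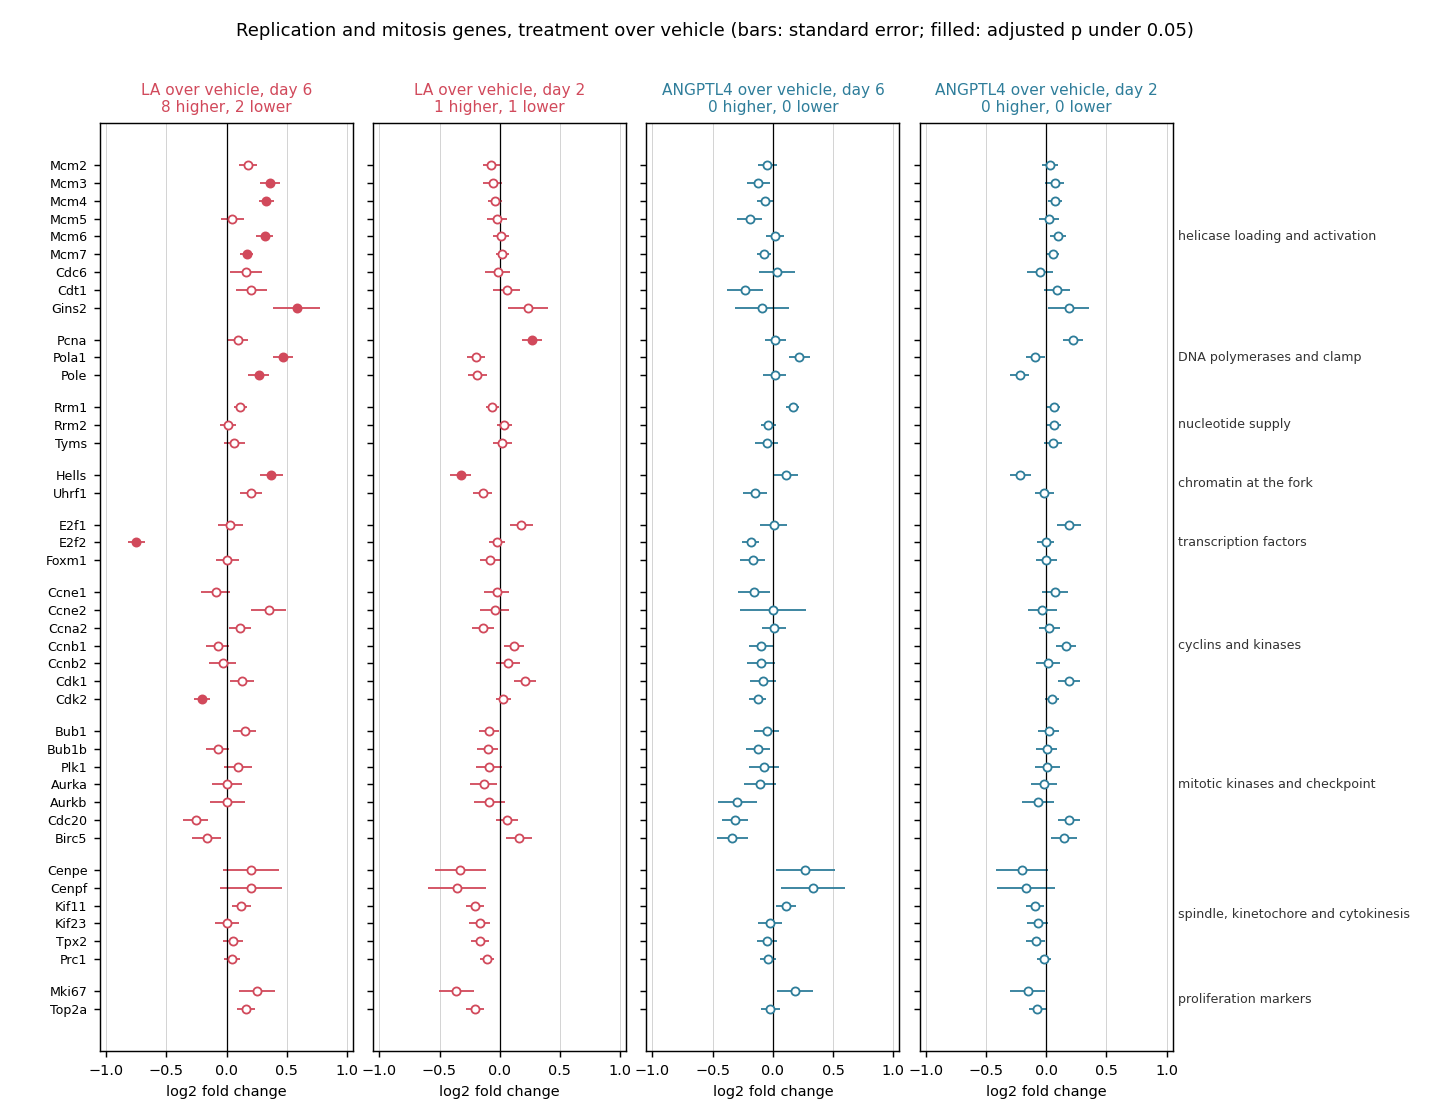
Log2 fold change over vehicle (x axis) for the 42 members, grouped by role, for LA at day 6 and day 2 and ANGPTL4 at day 6 and day 2 (left to right); bars are standard errors, and filled points have an adjusted p under 0.05. At day 6 with LA 8 filled points lie right of 0, all in the replication rows, and E2f2 lies farthest left at -0.75; the ANGPTL4 panels hold no filled point.

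At day 2 LA gave few calls among the members. Of the 42 members 1 was higher and 1 lower, where 8.27% of all genes tested were higher and 6.82% lower. Values were negative for 28 members and positive for 14, and 9 had an unadjusted p under 0.05. All 6 spindle, kinetochore and cytokinesis genes (-0.35 to -0.11) and the 2 proliferation markers (-0.36 and -0.21) were negative, with 0 called. The spindle class summed to 295 to 311 CPM with LA and 326 to 394 CPM with vehicle, with no overlap. Hells had 25.2, 23.3, 22.2 and 22.8 CPM with LA at day 2, against 28.1, 29.1, 31.4 and 29.0 CPM with vehicle, with no overlap (-0.33 ± 0.09, adjusted p = 0.012). Pcna had 56.1, 57.8, 60.0 and 42.9 CPM with LA, against 50.4, 38.6, 48.4 and 45.0 CPM with vehicle, where LA replicate 4 lay within the vehicle range (0.27 ± 0.08, adjusted p = 0.023). With LA replicate 3 of day 2 and ANGPTL4 replicate 1 of day 6 both left out, 0 members were called, and likewise 0 with trends of transcript length and GC content removed, a setting chosen after seeing the data. Without LA replicate 3 of day 2 alone both calls were lost, Hells at an adjusted p of 0.052 and Pcna at 0.13. Pcna was also lost without LA replicates 1 and 2 (0.053 and 0.066) and without vehicle replicates 2 and 4 (0.11 and 0.057).

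The test of the LA effect at day 6 minus that at day 2 called 10 members higher and 1 lower, where 8.68% of all genes tested were higher and 11% lower. Without LA replicate 3 of day 2 and ANGPTL4 replicate 1 of day 6 the count was 7. Hells stood at 0.70 ± 0.13 (adjusted p = 0.00031), Pola1 at 0.66 ± 0.11 (0.00012), Pole at 0.45 ± 0.12 (0.0063), Mcm3 at 0.42 ± 0.11 (0.0093) and E2f2 at -0.72 ± 0.10 (1.1e-05). For Hells and Pola1 the values were negative at day 2 (-0.33 and -0.20) and positive at day 6 (0.37 and 0.47), and the Pola1 value of day 2 did not pass (adjusted p = 0.075). Mcm4 (0.37) was also called under all 34 alternatives. Mki67, at 0.61 ± 0.21, was called in 18 of 34 alternatives, with adjusted p of up to 0.16, and Uhrf1 (0.34), Kif11 (0.33), Mcm6 (0.31) and Top2a (0.37) were lost in 10, 6, 4 and 1 of them. For Mki67 and Top2a the LA values at day 2 were -0.36 and -0.21, and those at day 6 were 0.25 and 0.16, with 0 calls on either day. Leaving out vehicle replicate 1 of day 6, where Mki67 was lowest, moved its adjusted p to 0.076, and leaving out LA replicate 3 of day 2 moved it to 0.089. For the others the highest adjusted p without 1 library was 0.13 for Uhrf1 (LA replicate 2 of day 6), 0.070 for Kif11 and 0.052 for Mcm6 (both LA replicate 4 of day 6).

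Recombinant ANGPTL4 was compared with the same vehicle libraries as LA. By edgeR 0 members passed at day 6, where 0.0231% of all genes tested were called in either direction, and 5 had an unadjusted p under 0.05. At day 2 again 0 passed, where 9.82% of all genes were called, and 4 had an unadjusted p under 0.05, and leaving out LA replicate 3 of day 2 and ANGPTL4 replicate 1 of day 6 gave 1, and leaving out ANGPTL4 replicate 4 of day 2 gave 0. DESeq2 and limma-voom also called 0 members on each day. Values ran from -0.34 (Birc5) to 0.33 (Cenpf) at day 6 and from -0.22 to 0.22 at day 2. E2f2 had 82.2, 79.6, 90.1 and 87.9 CPM with ANGPTL4 at day 6, all 4 below the lowest vehicle library, at 90.2 CPM (-0.18 ± 0.07, adjusted p = 0.30). Mcm3 had 19.4, 22.2, 20.8 and 26.7 CPM, 3 of them below the lowest vehicle library (-0.12 ± 0.09, adjusted p = 0.64). The ANGPTL4 effect at day 6 minus that at day 2 called 0 members by edgeR, where 0.277% of all genes were called, 5 had an unadjusted p under 0.05, and limma-voom called 0 and DESeq2 1.

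Set directly against ANGPTL4 at day 6, LA gave 8 members higher and 1 lower, where 6.6% of all genes tested were higher and 7.32% lower. Higher were Gins2 (0.67), Mcm3 (0.48), Cdt1 (0.44), Mcm4 (0.39), Uhrf1 (0.35), Mcm6 (0.30), Pola1 (0.25) and Mcm7 (0.24), and E2f2 was lower (-0.57 ± 0.07, adjusted p = 1.4e-06). Mcm3 had 29.5 to 33.6 CPM with LA and 19.4 to 26.7 CPM with ANGPTL4, which do not overlap (adjusted p = 0.00023). Cdt1 had 7.36, 9.25, 6.37 and 8.27 CPM with LA, against 6.12, 5.23, 5.39 and 6.42 CPM with ANGPTL4, and its call (adjusted p = 0.042) was lost in 7 of 34 alternatives, up to 0.16 without LA replicate 2. Uhrf1 had 23.7, 34.5, 28.7 and 29.7 CPM with LA, against 26.0, 21.8, 18.5 and 25.0 CPM with ANGPTL4, and its adjusted p was 0.088 without LA replicate 2 and 0.078 without ANGPTL4 replicate 3. The calls of Gins2 and Pola1 also depended on LA replicate 2 (0.11 and 0.16 without it), and Pola1 on LA replicate 4 (0.17) and on ANGPTL4 replicates 1, 2 and 3 (0.091, 0.076 and 0.14). Gins2 was lost without ANGPTL4 replicates 3 or 4 (0.10 and 0.13), and Cdt1 also without LA replicate 4 (0.095) and ANGPTL4 replicates 1, 2 and 3 (0.057, 0.13 and 0.11). At day 2 LA against ANGPTL4 called 0 members by edgeR, DESeq2 and limma-voom, where 0.0924% of all genes were called, and 2 had an unadjusted p under 0.05. In this comparison LA replicate 3 lay among the ANGPTL4 libraries in the principal component analysis, and ANGPTL4 replicate 4 lay nearer to LA. No alternative left out both of these libraries, so a difference between the groups could be missed.

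Summed over a class the same libraries can be set side by side. The 9 helicase genes together had 255 to 291 CPM with LA at day 6, 211 to 234 CPM with ANGPTL4 and 226 to 235 CPM with vehicle, so that no LA library reached into the other groups. At day 2 the sums were 311 to 328 CPM with LA, 324 to 347 CPM with ANGPTL4 and 298 to 341 CPM with vehicle. Not every replication class stood apart at day 6. Polymerases and clamp had 96.9 to 111 CPM with LA, 87.6 to 98.7 CPM with ANGPTL4 and 82.2 to 92.8 CPM with vehicle. Nucleotide supply had 283 to 337 CPM with LA and 291 to 313 CPM with vehicle, which overlap. Chromatin at the fork had 45.6 to 62.3 CPM with LA and 42.9 to 49.0 CPM with vehicle, which overlap too. The 7 mitotic kinase and checkpoint genes had 102 to 130 CPM with LA at day 6, 94.6 to 116 CPM with ANGPTL4 and 114 to 123 CPM with vehicle, which overlap. All 42 members together had 1591 to 1913 CPM with LA, 1566 to 1783 CPM with ANGPTL4 and 1519 to 1706 CPM with vehicle at day 6. The LA libraries of day 6 were split, with 1654, 1913, 1591 and 1891 CPM in replicates 1 to 4. Replicates 1 and 3 lay within the vehicle range, and replicates 2 and 4 lay above it. At day 2 the members had 1963 to 2052 CPM with LA, 2075 to 2277 CPM with ANGPTL4 and 1966 to 2327 CPM with vehicle.

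**Figure D5:**
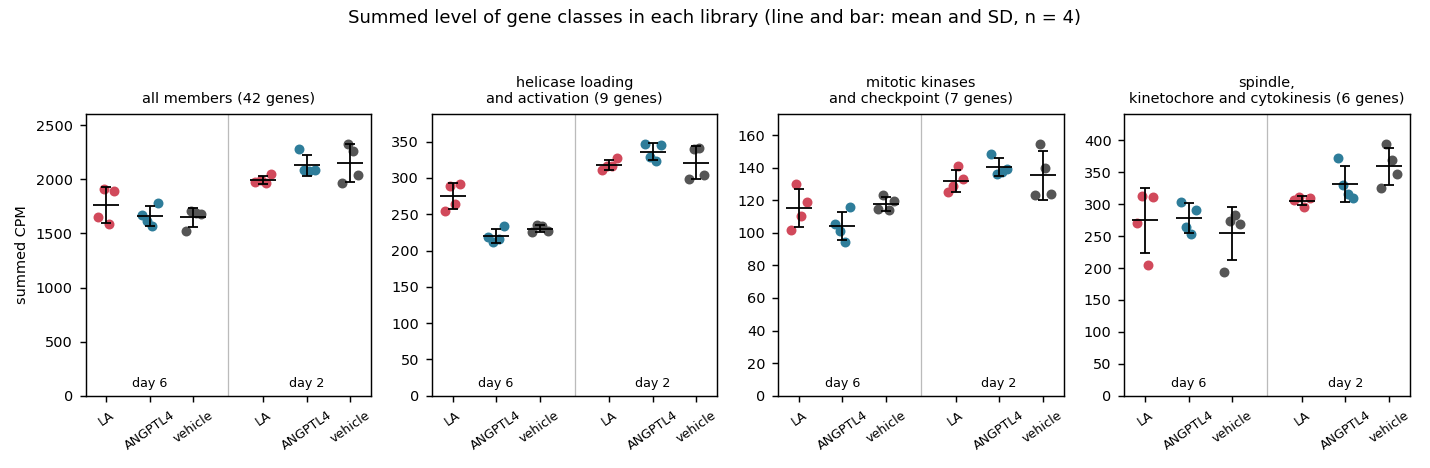
Summed CPM (y axis, from 0) of all 42 members and of 3 classes in each library at day 6 (left of the grey line) and day 2 (right), with LA (red), ANGPTL4 (blue) and vehicle (grey); lines with bars are means and SD of 4 libraries. The helicase class stands at 255 to 291 CPM with LA at day 6, above the 226 to 235 CPM with vehicle. The mitotic classes overlap between treatments at day 6. Of the replication classes only the helicase class is drawn, and nucleotide supply and chromatin at the fork overlap between LA and vehicle at day 6. At day 2 the spindle, kinetochore and cytokinesis class stands at 295 to 311 CPM with LA, below the 326 to 394 CPM with vehicle.

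Other genes of the same pathways were taken from lists made with earlier results of these data known. The counts between day 6 and day 2 in vehicle cells stand beside 20.5% of all genes that fell and 25.2% that rose. In that comparison 23 of 40 other replication genes fell and 0 rose, among them Orc1 (-0.81) and Mcm10 (-0.77) of origin licensing and firing and the kinase Cdc7 (-0.68). Of 56 other mitosis genes 30 fell and 0 rose, with Cenpk at -0.73, Knl1 at -0.69 and Kif15 at -0.64. Of 18 replication checkpoint and repair genes 15 fell and 0 rose. Of 16 E2F, Rb and DREAM regulators 2 rose and 10 fell, with the repressors E2f8 at -0.69 and E2f6 at 0.49 among them. Of 9 G1 cyclins and kinases 2 rose and 4 fell, with Skp2, which targets Cdkn1b for degradation, at -0.83.

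The cell cycle inhibitors split. Cdkn1a, the inhibitor p21, had 1553, 1551, 1313 and 1367 CPM in vehicle cells at day 6, against 806, 882, 874 and 801 CPM at day 2, so that day 6 was above day 2 in every library (0.78 ± 0.07, adjusted p = 5.4e-11). Cdkn2d, an inhibitor of Cdk4 and Cdk6, rose as well (0.71), and Cdkn1c, the inhibitor p57, fell by 1.52. With LA at day 6 Cdkn1a had 1033, 846, 1084 and 892 CPM, all below the lowest vehicle library (-0.59 ± 0.07, adjusted p = 1.3e-07), and Cdkn2d was lower too (-0.54, adjusted p = 0.00072).

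With LA at day 6, 5 of 40 other replication genes were higher than with vehicle and 0 lower, with Tipin (0.43), a fork protection protein, Cdc7 (0.43) and Dut (0.39), which clears dUTP. Of 56 other mitosis genes 4 were higher and 0 lower, with Cenpk (0.69), Nusap1 (0.31) and Sgo2a (0.27). Of 18 checkpoint and repair genes 2 were higher, Rad51ap1 (0.52) and Brca1 (0.36), and 0 lower. Of the G1 genes Cdk4 was higher (0.20) and Ccnd3, a D cyclin known to accumulate in myotubes, lower (-0.39), and of the E2F, Rb and DREAM list Rb1 and E2f6 were lower (each -0.18). These counts stand beside 7.83% of all genes higher and 9.38% lower.

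Markers of cell state moved with the same comparison. Of the 9 myogenic markers 8 were lower with LA than with vehicle at day 6, among them the fusion gene Mymk (-0.59), desmin, Des (-0.46) and Myog (-0.24), and Myf5 was higher (0.40). Their summed level was 9118 to 10110 CPM with LA, 12255 to 12830 CPM with ANGPTL4 and 12807 to 13433 CPM with vehicle. Of 8 satellite and reserve cell markers with a row, 4 were higher and 1 lower. Myf5 is in both lists and is 1 of these 4, so the lists are not separate. The sums of the satellite and reserve cell markers were 606 to 699 CPM with LA, 487 to 575 CPM with ANGPTL4 and 503 to 559 CPM with vehicle. Of 8 fibroblast markers 4 were higher and 0 lower, with sums of 14214 to 17070 CPM with LA, 12368 to 13314 CPM with ANGPTL4 and 12176 to 14136 CPM with vehicle. Of the 6 adipocyte markers only Lpl had a row (2.63 with LA over vehicle), and the 3 macrophage and 2 endothelial markers with a row summed to at most 2.59 and 1.57 CPM at day 6. The part of these shifts in the values of the replication genes was not tested.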

How the data were processed

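Counts were deposited as whole numbers per gene symbol; the submitters' processing notes name Trimmomatic, STAR 2.7.1a, HTSeq 0.9.1, DESeq2, DESeq and the build mm39, without order or settings. Libraries were made with a QuantSeq 3′ kit from RNA of integrity number over 7, per the labels' protocols. The lowest total of a gene in the deposited table was 51.

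Low counts were removed with filterByExpr, and 24 libraries were fitted in 1 model of 6 group means (18 residual degrees of freedom) with TMM scaling and robust quasi-likelihood tests in edgeR 4.0.16 (R 4.3.3). Adjusted p-values are Benjamini-Hochberg over 12994 genes, and standard errors are approximate, from the F statistic. CPM used TMM-scaled totals. The script was tested on simulated data. Within-group libraries differed by more than counting noise (at least 1.54 chi-square per gene), and none was counted as a duplicate. Totals of 6100684 to 25049912 counts gave 18 to 132 counts for Gins2, the lowest member.

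The members and lists were chosen with earlier results of these data known. Named were, per role class and comparison, the member of the highest CPM and the called one of the largest change, then the 10 largest over all classes (5 in comparisons other than days and vehicle), and up to 3 called genes per other list. Values per library are given for the highest member of each class and the 3 largest called changes. Further members were named after their values were seen.

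Alternatives were DESeq2 size factors, library totals, no filter, 5 CPM in 4 libraries, limma-voom (limma 3.58.1), DESeq2 1.42.0, the compared groups alone, a replicate block, dropping LA replicate 3 of day 2 and ANGPTL4 replicate 1 of day 6, which lay apart in a principal component analysis, each library left out and, chosen after seeing the data, trends with transcript length and GC content removed. Transcript lengths came from GENCODE vM21 and promoters from RefSeq on GRCm38.p6, not from mm39, so no coordinates of the counts are given.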

Additional observations from a re-analysis of the deposited data

Results flagged for a closer look

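Of 156 groups of 4 libraries looked at, 14 held a library farther from the rest than Dixon's 95% limit, where chance gives about 1 in 20. These groups include single genes and the sums that contain them, so the flags are not independent of each other. Vehicle replicate 1 of day 6 was low in 5 of the 14. Its Cenpf was 26.9 CPM (others 72.8 to 79.1), its Mki67 117 (181 to 185), its proliferation marker sum 268 (342 to 346), its spindle, kinetochore and cytokinesis sum 193 (269 to 284) and its sum of all members 1519 (1683 to 1706).

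At day 6, LA replicate 2 was high for Bub1b at 26.9 CPM (22.4 to 23), LA replicate 4 was high for Pcna at 49.2 (45.1 to 45.5), and vehicle replicate 2 was high for the nucleotide supply sum at 313 (291 to 292). At day 2, LA replicate 4 was low for Gins2 at 3.48 CPM (4.96 to 5.18), ANGPTL4 replicate 1 was high for Mki67 at 271 (209 to 217) and for the sum of all members at 2277 (2075 to 2086), and ANGPTL4 replicate 3 was low for Pole at 22.7 (25.6 to 25.9). Vehicle replicate 2 of day 2 was high for Gins2 at 5.57 CPM (3.32 to 3.63), and vehicle replicate 1 of day 2 was low for Mki67 at 195 (266 to 278).

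The LA effect at day 6 differed from that at day 2 by the interaction test for 11 members. The differences in log2 fold change were 0.70 for Hells, 0.66 for Pola1, 0.61 for Mki67, 0.45 for Pole, 0.42 for Mcm3, 0.37 for Mcm4, 0.37 for Top2a, 0.34 for Uhrf1, 0.33 for Kif11, 0.31 for Mcm6 and -0.72 for E2f2.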

How the results depend on the processing

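Over 34 alternatives, the values of called members kept their sign in 3978 of 3978 cases and the call in 3796. Counts of members called for LA over vehicle at day 2 moved from 2 to 4 with DESeq2 size factors, 4 with the filter of 5 CPM and 4 with DESeq2, and to 0 without the 2 libraries that stood apart and 0 with length and GC trends removed. For ANGPTL4 over vehicle at day 2 the count of 0 became 1 with DESeq2 size factors, 1 with library totals alone, 1 with the filter of 5 CPM and 1 without the 2 libraries apart. The LA difference between days went from 11 to 7 without the 2 libraries apart, and the ANGPTL4 difference from 0 to 1 with DESeq2. The cause was not tested.

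With each library left out in turn, the counts for day 6 over day 2 ran from 15 to 23 with LA, 30 to 37 with ANGPTL4 and 25 to 32 with vehicle. LA over vehicle gave 7 to 11 at day 6 (7 without LA replicate 2 of day 6) and 0 to 5 at day 2 (0 without LA replicate 3 of day 2, 5 without LA replicate 4), ANGPTL4 over vehicle 0 to 0 at day 6 and 0 to 1 at day 2. LA over ANGPTL4 gave 5 to 11 at day 6 (5 without LA replicate 2) and 0 to 0 at day 2, the LA difference between days 7 to 14 (7 without LA replicate 4 of day 6) and the ANGPTL4 difference 0 to 0. Same-numbered libraries did not deviate together more than others (median correlation 0.0088 over 60 pairs, 0.0032 over 180 other pairs). The same-numbered pairs ran from -0.31 to 0.30, so no pairing by number was seen, but a weak one could be missed. With the replicate number as a block, counts were 20, 36 and 29 for day 6 over day 2 with LA, ANGPTL4 and vehicle, 10 and 3 for LA over vehicle at day 6 and day 2, 9 for LA over ANGPTL4 at day 6, 9 for the LA difference, and 0 elsewhere. Depth limits Gins2, Cdc6, Cdt1, Ccne1, Ccne2 and Aurkb most, which had fewer than 50 counts in some libraries.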

Other observations

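Outside the 42 members, ANGPTL4 at day 2 had 2 of 18 replication checkpoint and repair genes lower than with vehicle and 0 higher, where 5.96% of all genes were lower and 3.86% higher. They were Rad54l (-0.47 ± 0.13, adjusted p = 0.020), a recombination motor, and Bard1 (-0.35 ± 0.11, 0.043), the partner of Brca1. Ccnd3 (0.20 ± 0.05, adjusted p = 0.015), its kinase partner Cdk4 (0.16 ± 0.05, 0.031), the E2F partner Tfdp1 (0.14 ± 0.04, 0.043) and the checkpoint protein Bub3 (0.19 ± 0.06, 0.030) were higher. All 4 libraries of each group lay apart for these genes except Cdk4, but the genes were picked by their calls. The share of all genes whose groups lay apart was not counted. None of the 40 other replication genes was called by edgeR, with 1 at an unadjusted p under 0.05.

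With LA at day 2, 8.27% of all genes were higher than with vehicle and 6.82% lower. Of 56 other mitosis genes 1 was higher and 2 lower, and of 40 other replication genes 1 was higher and 1 lower. Of 16 E2F, Rb and DREAM regulators 0 were higher and 4 lower. Cks2, a small Cdk-binding protein, was higher than with vehicle in every library (0.68 ± 0.14, adjusted p = 0.0027). Rpa3, a subunit of the single-strand binding complex, was higher too (0.45 ± 0.11, 0.0079). The repressor E2f8 (-0.37 ± 0.09, adjusted p = 0.0076) and the checkpoint adaptor Clspn (-0.32 ± 0.11, 0.036) were lower. The LA effect at day 6 minus that at day 2 was negative for the inhibitors Cdkn2d (-0.84 ± 0.16, adjusted p = 0.00044) and Cdkn1a (-0.70 ± 0.09, 1.1e-05), and for Cks2 (-0.62 ± 0.21, 0.037). It was positive for Clspn (0.63 ± 0.16, adjusted p = 0.0057), Cenpk (0.73 ± 0.21, 0.012) and Brca1 (0.50 ± 0.16, 0.030). By this test 9 of 56 other mitosis genes were higher and 1 lower. Of 40 other replication genes 4 were higher and 0 lower, and of 18 checkpoint and repair genes 1 was higher and 0 lower. Of 5 cell cycle inhibitors 0 were higher and 2 lower. Over all genes tested 8.68% were higher and 11% lower. Tests are edgeR's quasi-likelihood tests with 4 libraries in each group, adjusted over all genes.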
